A study of Mus musculus with 8 samples.

Results

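Growth factor genes of the PDGF and FGF families, with Hgf and Angpt1, were followed in bone marrow mesenchymal stem cells (BMSCs) during osteogenic differentiation. The set holds 10 of the 26873 genes in the count table, found by their symbols: the PDGF ligands Pdgfa, Pdgfb and Pdgfc, the receptors Pdgfra and Pdgfrb, the FGF ligands Fgf2 and Fgf7, the receptor Fgfr1, and Hgf and Angpt1. All 10 passed the filter on low counts. The cells, labelled as a wild-type (WT) BMSC line, were exposed to extracts of PCL (polycaprolactone, a degradable polyester) scaffolds made in complete DMEM with 10% FBS. Of the 4 arms, PCL-O was read as the blank of the study design, PCL-S as its S7 group, PCL-E as its E7 group and PCL-SE as the group with both. The codes S7 and E7 are not spelled out in the labels. Each arm was sequenced on day 3 and day 7, giving 8 libraries of bulk RNA with 1 per arm and day.

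No arm had a replicate library, although the extraction protocol mentions n = 3 RNA samples. Tests therefore compared PCL-S and PCL-SE (with S7) against PCL-O and PCL-E (without S7), so each group of n = 2 joins 2 different arms. The spread is the departure of the libraries from the fitted terms for S7, day, their interaction and E7. The fit draws each gene's spread toward the trend over all genes tested, and p-values measure only that moderated spread. Whether libraries came from separate cultures was not stated in the labels. In bulk RNA, fewer cells of a type and less RNA per cell cannot be told apart.

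Library totals ran from 32950326 to 41754124 counts. Of the gene identifiers, 22050 were rat Ensembl IDs and 0 were mouse Ensembl IDs, whereas the labels name Mus musculus and the mm10 build, so the species of the cells was not settled here. Stromal markers were present in every library, with Thy1 at 332 to 916 CPM (counts scaled to library size). Nt5e (1.66 to 18.7 CPM), Lepr (0.415 to 4.54) and Cxcl12 (0.438 to 4.53), of the same list, were lower. The osteogenic list members Runx2 (16.0 to 34.0 CPM), Spp1 (670.5 to 2417) and Col1a1 (4561 to 34881) were also present in every library. Alpl ran from 0.607 to 13.8 CPM, and the osteoblast genes Sp7 (at most 0.553), Ibsp (at most 1.03) and Bglap (at most 0.159) were low. Of the endothelial list, Cdh5, Tie1 and Emcn were at 0 everywhere, and the summed level, mostly Tek, was 13.8 to 15.4 CPM with S7 against 6.08 to 7.18 without it on day 3 and 3.53 to 4.23 in all libraries of day 7. The haematopoietic markers summed to at most 0.858 CPM. The summed level of the 9 stromal markers, which include Pdgfra and Pdgfrb, was 6398 to 6538 CPM with S7 against 5603 to 5653 without it on day 3, and 2865 to 2961 against 4802 to 5327 on day 7. Itgb1 (1485 to 4594 CPM) carried most of that sum, and Cd44 and Pdgfra rose with S7 on day 7 (Cd44 by 0.75, adjusted p = 0.00101). Cxcl12 fell with S7 on day 3 (-1.14, adjusted p = 0.0326), when the sum was higher. The 6 pericyte and smooth muscle markers summed to 7264 to 7305 against 10313 to 10903 CPM on day 3 and 1944 to 2159 against 7446 to 9614 on day 7, with Rgs5 at 0 everywhere. Acta2 (1616 to 10034 CPM) carried most of that sum. Cspg4 was at 640.3 and 612 CPM with S7 on day 3 against 569.9 and 532 without it, and Des, at most 1.35 CPM, rose on day 7 (2.94, adjusted p = 0.0446). The 7 osteogenic markers, dominated by Col1a1, summed to 33016 to 35861 against 20975 to 22152 CPM on day 3 and 6410 to 7010 against 16085 to 27328 on day 7. Other members went against that sum. Alpl on day 3 was at 8.04 (PCL-S) and 7.75 (PCL-SE) CPM, against 10.0 (PCL-O) and 13.2 (PCL-E). Spp1 rose with S7 on day 7 (0.70, adjusted p = 0.0485). The part of these marker changes in the results for the growth factors was not tested. Within a day, PCL-S and PCL-SE were the most alike pair: their counts differed by 7.0 times (day 3) and 16.1 times (day 7) the sampling variance, whereas PCL-O and PCL-E differed by 16.1 and 84.8 times.

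PDGF ligands are secreted dimers that bind the receptor tyrosine kinases encoded by Pdgfra and Pdgfrb, and drive division and migration of mesenchymal cells. PDGF-B from endothelium recruits pericytes through PDGFR-beta. FGFs bind FGF receptors together with heparan sulfate or Klotho cofactors, signal through FRS2 and ERK, and induce their own inhibitors such as Sprouty and dual-specificity phosphatases. FGF2 is a mitogen of marrow stromal cells, and FGF7 is made by mesenchyme and acts mainly on epithelium. HGF acts through MET. Angiopoietin 1, made by stromal and mural cells, activates the TEK (TIE2) receptor.

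Promoter windows of 250 bases before to 50 bases after the transcription start were read from RefSeq (GRCm38.p6) for 6 of the 10 genes, in 8 windows; Pdgfb, Pdgfrb, Fgfr1 and Angpt1 had none. They are mouse sequences, whereas the table carries rat identifiers. The windows of Fgf7, which had the largest rise of the set, Fgf2, which passed no test, and Pdgfc, which fell with S7 on both days, are shown in lower case on the plus strand, with motif matches in capitals. They lie at chr2:126034408-126034707, chr3:37348403-37348702 and chr3:81036166-81036465.
Fgf7: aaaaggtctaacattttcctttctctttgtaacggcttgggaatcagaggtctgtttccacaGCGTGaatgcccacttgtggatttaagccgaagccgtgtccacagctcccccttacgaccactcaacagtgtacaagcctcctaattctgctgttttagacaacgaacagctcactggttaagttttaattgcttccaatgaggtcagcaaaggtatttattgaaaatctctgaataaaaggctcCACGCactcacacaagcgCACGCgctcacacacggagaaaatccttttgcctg
Fgf2: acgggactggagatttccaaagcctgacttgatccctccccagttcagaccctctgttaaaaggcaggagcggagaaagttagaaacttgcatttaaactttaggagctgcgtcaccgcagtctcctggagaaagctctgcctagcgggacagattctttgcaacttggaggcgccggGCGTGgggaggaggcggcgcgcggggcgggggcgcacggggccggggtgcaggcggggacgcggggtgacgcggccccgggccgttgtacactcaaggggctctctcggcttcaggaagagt
Pdgfc: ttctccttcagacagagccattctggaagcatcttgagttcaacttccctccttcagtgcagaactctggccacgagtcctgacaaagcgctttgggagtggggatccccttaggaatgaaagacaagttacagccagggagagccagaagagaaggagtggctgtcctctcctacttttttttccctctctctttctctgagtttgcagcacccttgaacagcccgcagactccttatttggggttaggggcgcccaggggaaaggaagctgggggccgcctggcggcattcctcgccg
The motifs searched, on both strands, were TATAAA (bound by TBP, in 13.6% of the 32851 promoter windows of 300 bases), TGANTCA (the AP-1 core, 7.81%), AGAACA (a glucocorticoid receptor half-site, 19.0%) and GCGTG (a hypoxia-inducible factor core, 32.4%). None of these overlapped another in the windows shown. Fgf7 held 3 GCGTG matches, of which those read on the other strand appear as CACGC, Fgf2 held 1, and Pdgfc held no match to any of the 4 motifs. A match is a string of letters in a window, not a measured site.

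Across genes, levels were compared per transcript length in the FPKM values that the authors deposited. Pdgfrb was highest, at 89.6 to 149.97 FPKM (median 101), and did not overlap any other gene of the set. Pdgfa (median 38.2, range 29.6 to 46.3) and Pdgfc overlapped in range, but Pdgfa was higher in each of the 8 libraries, by 1.24 to 1.64 times. The mean over the 8 libraries then descended through Fgf7 (24.7 ± 28.4, SD over all 8), Fgfr1 (16.6), Pdgfra (6.89), Fgf2 (3.77 ± 0.454), Angpt1 (3.22 ± 2.02) and Pdgfb (1.06 ± 1.16) to Hgf (0.156). Fgf7 and its neighbours Pdgfc and Fgfr1, Fgf2 and Angpt1, and Pdgfb and Hgf differed by less than the larger SD of each pair. The gaps from Fgfr1 to Pdgfra, Pdgfra to Fgf2 and Angpt1 to Pdgfb were larger than either SD. These means join arms and days that differ, and in PCL-O day 7 Pdgfb (2.69 FPKM) exceeded Angpt1 (1.78). The plot of the 10 genes by library shows each level in TMM-normalised CPM, the scale of all levels below. TMM scaling adjusts each library's total for its composition.

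**Figure D1:**
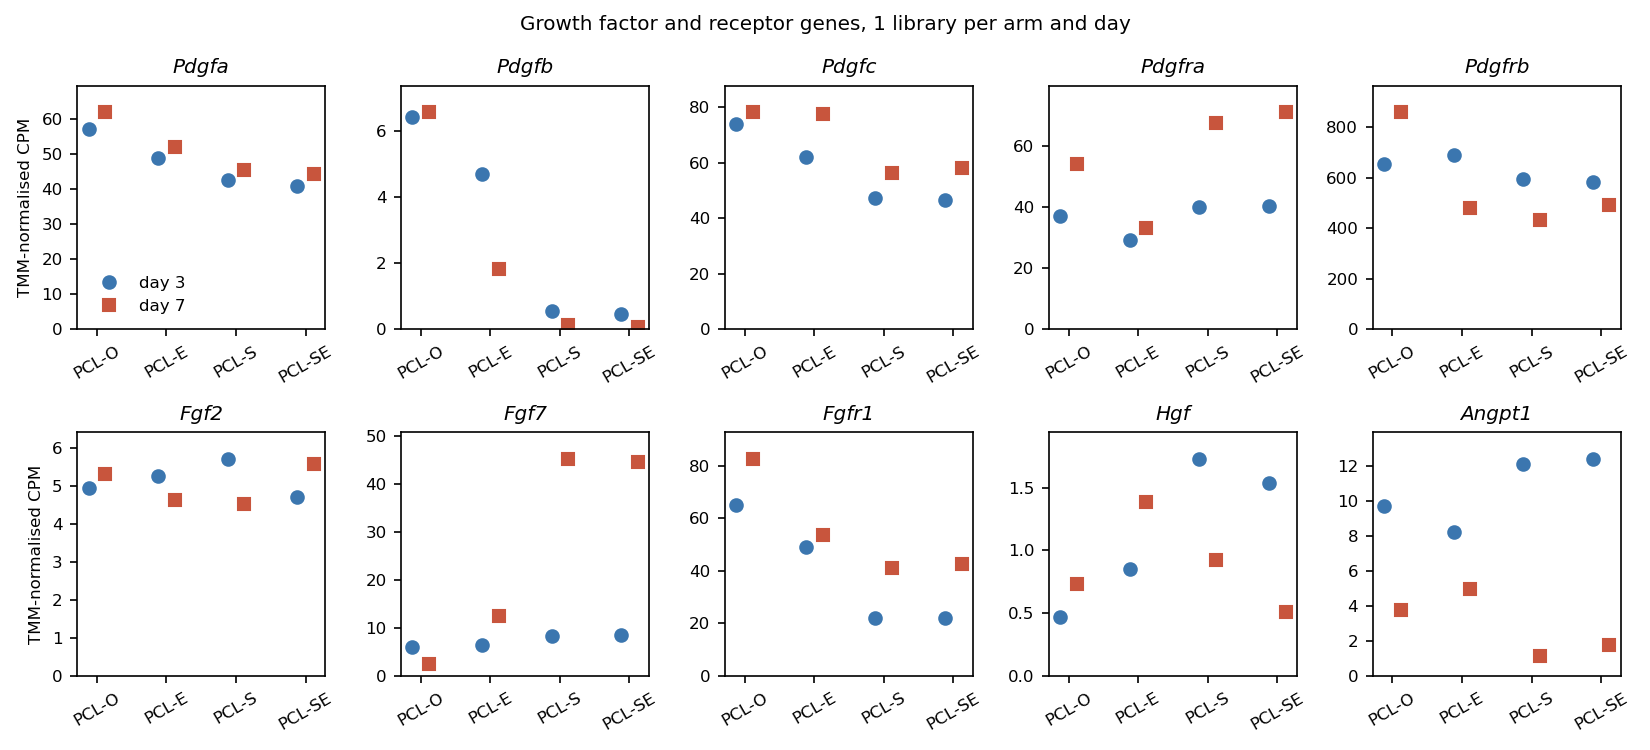
TMM-normalised CPM (linear axis) of the 10 genes in each of the 8 libraries, 1 panel per gene, 1 point per arm and day. Pdgfb is lowest in the PCL-S and PCL-SE libraries of both days, Fgf7 is highest in the same arms on day 7 (45.3 and 44.5 CPM), and Fgf2 stays between 4.54 and 5.73 CPM.

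With S7, 4 of the 10 genes fell and 0 rose on day 3; on day 7, 5 fell and 2 rose. Pdgfa, Pdgfb, Pdgfc and Fgfr1 fell on both days. Angpt1 joined them on day 7, when Fgf7 and Pdgfra rose. The calls use edgeR's quasi-likelihood test with Benjamini-Hochberg adjustment over 15942 genes and a threshold of 0.05. Of all genes tested, 7.1% rose and 6.87% fell on day 3, and 24.9% rose and 26.2% fell on day 7. The median log2 fold change of the set was -0.08 on day 3, against 0.003 over all genes, and -0.48 on day 7, against -0.03. With scaling by total counts the day 7 split over all genes was 5642 higher and 3008 lower, instead of 3965 and 4172, and the median of all genes moved up by 0.22. Direction is given relative to that centre.

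**Figure D2:**
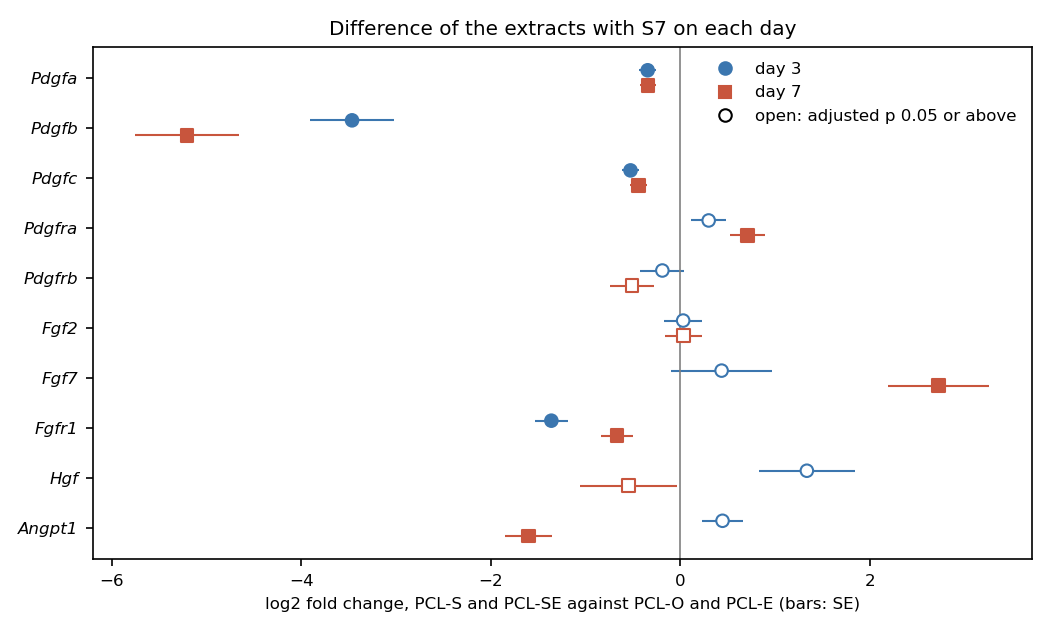
Log2 fold change of the libraries with S7 over those without, per gene and day, with the standard error of the fit as bars and filled points for adjusted p under 0.05. Pdgfb has the lowest value on both days (-3.47 and -5.21), and Fgf7 the highest on day 7 (2.72).

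Among the PDGF ligands, Pdgfb, which encodes the B chain, fell most. Its levels on day 3 were 6.42 (PCL-O), 4.70 (PCL-E), 0.552 (PCL-S) and 0.470 (PCL-SE) CPM. On day 7 they were 6.58, 1.81, 0.132 and 0.0692 in the same order. The libraries with S7 lay below those without on both days, and PCL-E lay between. The log2 fold change was -3.47 ± 0.44 (SE) on day 3 (adjusted p = 0.00495) and -5.21 ± 0.54 on day 7 (adjusted p = 0.000539). The day 7 libraries with S7 held only 5 (PCL-S) and 3 (PCL-SE) counts, against 207 in PCL-O. The ratio of PCL-O to PCL-S was 49.9 (95% exact counting interval 21.0 to 155), and that of PCL-O to PCL-SE was 95.1 (32.1 to 465). These intervals cover counting error only. Without PCL-S day 3 the day 3 call was lost (-3.00, adjusted p = 0.0764). The day 7 value was -4.37 without PCL-O day 7 and -5.80 without PCL-E day 7, called in both. The change of the effect between days, -1.74 ± 0.74, did not pass (adjusted p = 0.124), but did without PCL-E day 7 (-2.36, 0.00877) and with an E7 by day term (-1.82, 0.0465).

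Pdgfa, the A chain ligand, and Pdgfc, whose product needs proteolysis to become active, fell by less. Pdgfa stood at 57.2 (PCL-O) and 48.8 (PCL-E) CPM without S7 on day 3, and at 42.5 (PCL-S) and 40.7 (PCL-SE) with it. By day 7 it stood at 61.9 and 51.9 without S7, and at 45.3 and 44.1 with it. The groups did not overlap on either day, but PCL-O exceeded PCL-E by more than PCL-E exceeded the S7 libraries on day 7. Its log2 fold change was -0.35 ± 0.09 (adjusted p = 0.0449) on day 3 and -0.34 ± 0.09 (adjusted p = 0.0162) on day 7. Pdgfc stood at 74.0 and 61.9 CPM without S7 on day 3 (PCL-O and PCL-E), and at 47.4 and 46.7 with it (PCL-S and PCL-SE). On day 7 Pdgfc was at 78.3 and 77.7 without S7, and at 56.5 and 58.2 with it. Its log2 fold change was -0.53 ± 0.09 (adjusted p = 0.014) and -0.44 ± 0.09 (adjusted p = 0.00746) on the same days, again with no overlap of the groups.

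The Pdgfa and Pdgfc calls depended on single libraries, the scaling and, for Pdgfa, the filter and model terms. Pdgfa on day 3 was lost without any 1 of the day 3 libraries PCL-O, PCL-S, PCL-E or PCL-SE (adjusted p = 0.15 to 0.36), and without PCL-S or PCL-SE of day 7 (0.0677 and 0.0675). In fits to all libraries it was lost with no low-count filter (0.0538), without the E7 term (0.074) and with an E7 by day term (0.0833). The day 7 call was lost without PCL-O day 7 (0.0576) and PCL-S day 7 (0.127), and with total-count scaling (-0.12, adjusted p = 0.277). Pdgfc was lost on day 3 without PCL-O (0.148), PCL-S (0.172) or PCL-SE (0.111) of that day. On day 7 it was lost without PCL-S (0.0711), and with total-count scaling (-0.22, adjusted p = 0.0961).

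Per length, Pdgfb was a minor ligand in every library. Its share of the summed FPKM of Pdgfa, Pdgfb and Pdgfc was 3.59% in PCL-O and 3.07% in PCL-E on day 3, and 0.445% and 0.385% in PCL-S and PCL-SE. The day 7 shares were 3.33% (PCL-O), 1.04% (PCL-E), 0.0967% (PCL-S) and 0.0366% (PCL-SE). Pdgfa made up 54.8% to 61.8% of the sum and Pdgfc 37.8% to 44.2%. The sum itself was 72.1 and 62.2 FPKM without S7 (PCL-O, PCL-E) and 48.4 and 48.3 with it (PCL-S, PCL-SE) on day 3. The day 7 sum was 80.7 and 76.4 without S7, and 65.8 and 65.6 with it.

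Of the PDGF receptors, Pdgfra rose with S7 on day 7 and Pdgfrb passed the test on neither day. Pdgfra, the receptor for both A and C ligands, was at 36.9 (PCL-O), 29.1 (PCL-E), 40.0 (PCL-S) and 40.4 (PCL-SE) CPM on day 3. On day 7 it was at 53.9, 33.0, 67.5 and 71.1 in the same order. The S7 libraries were higher on both days, and PCL-E was the lowest library on each. The log2 fold change was 0.30 (adjusted p = 0.344) on day 3 and 0.71 ± 0.18 (adjusted p = 0.0178) on day 7. Without PCL-SE day 7 the latter call was lost (0.50, adjusted p = 0.124), and without PCL-O day 7 the change between days was called (0.75, adjusted p = 0.0212).

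Pdgfrb, the receptor for the B chain, was at 653 (PCL-O), 689 (PCL-E), 594 (PCL-S) and 584 (PCL-SE) CPM on day 3. Its day 7 levels were 860.4, 479.8, 433 and 490.1 CPM in the same order. PCL-O stood alone on day 7, and PCL-E overlapped the S7 libraries, so the value without S7 had no common level. The log2 fold changes were -0.19 (adjusted p = 0.641) and -0.51 ± 0.23 (adjusted p = 0.109). Without PCL-E day 7 the day 7 value became -0.94 with adjusted p = 0.000205, and the change between days -0.75 with adjusted p = 0.00263. Without PCL-O day 7 the day 7 value was -0.0178 and the change between days 0.17, neither of them called. DESeq2 gave adjusted p = 0.0491 for the day 7 effect. Pdgfrb exceeded Pdgfra in FPKM by 18.2 to 29.7 times on day 3, and by 20.2 and 18.4 times in PCL-O and PCL-E on day 7. The day 7 ratio was 8.07 (PCL-S) and 8.67 (PCL-SE) with S7.

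**Figure D3:**
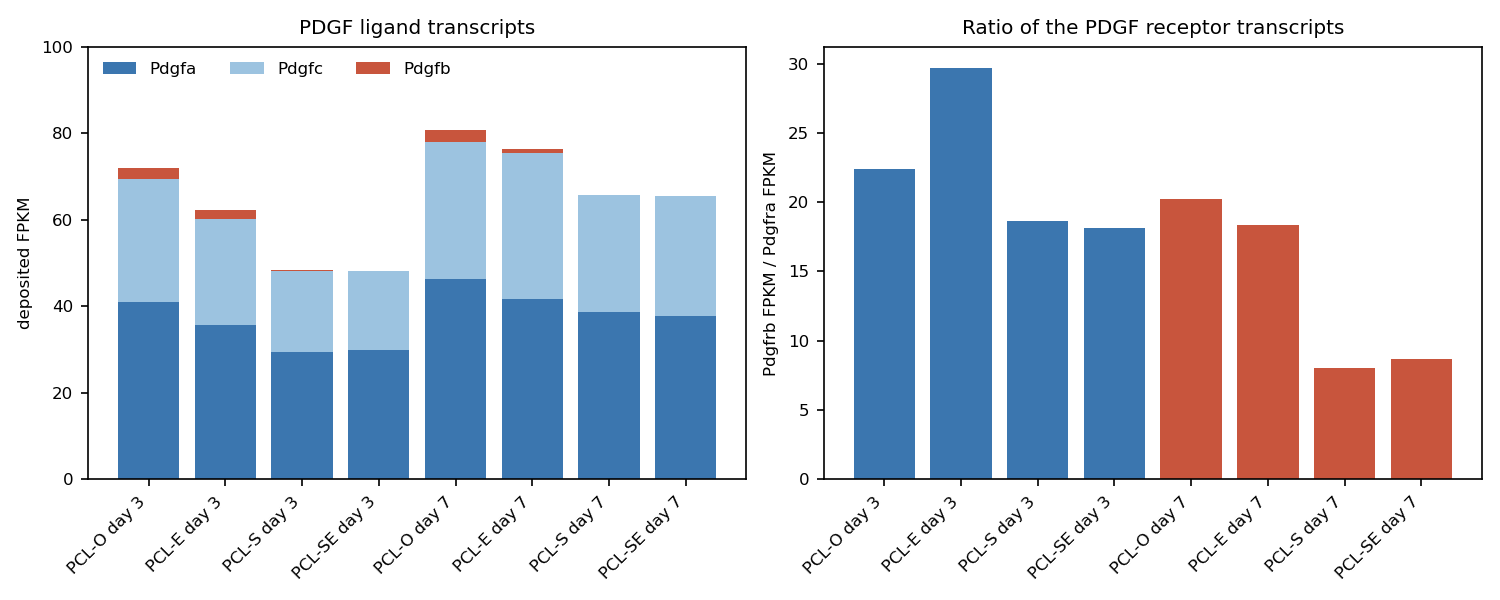
FPKM of the PDGF ligands and the ratio of Pdgfrb to Pdgfra FPKM in the 8 libraries. The Pdgfb share of the 3 ligands is at most 0.445% in libraries with S7, and the receptor ratio is lowest in the day 7 libraries with S7 (8.07 and 8.67).

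The FGF ligands split. Fgf7, the keratinocyte growth factor, was at 6.04 (PCL-O), 6.42 (PCL-E), 8.33 (PCL-S) and 8.37 (PCL-SE) CPM on day 3. By day 7 the same arms stood at 2.45, 12.4, 45.3 and 44.5 CPM. The S7 libraries were close to each other on day 7, while PCL-O and PCL-E were 5.08-fold apart (95% counting interval 3.99 to 6.53). The log2 fold change was 0.43 ± 0.53 (adjusted p = 0.646) on day 3 and 2.72 ± 0.54 (adjusted p = 0.00585) on day 7. The day 7 value was 1.86 without PCL-O day 7 and 4.19 without PCL-E day 7, and was called in both. With PCL-O day 7 or PCL-E day 7 left out, the day 3 difference passed the test (0.42 in both, adjusted p = 0.0218 and 0.0249). Relative to PCL-O, PCL-S was 18.5-fold higher on day 7 (14.7 to 23.6) and PCL-SE 18.2-fold (14.5 to 23.2). The change of the effect between days, 2.29 ± 0.74, missed the threshold (adjusted p = 0.0594). It passed without PCL-O day 7 (1.44, adjusted p = 0.00134), without PCL-E day 7 (3.77, 7.02e-05), with total-count scaling (2.51, 0.0388), without the low-count filter (0.0433) and with the arm as a block, which compares days within each arm (2.46, 0.0369).

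Fgf2, the basic FGF, kept the narrowest range of the set. It was at 4.96 (PCL-O), 5.27 (PCL-E), 5.73 (PCL-S) and 4.70 (PCL-SE) CPM on day 3, and at 5.31, 4.63, 4.54 and 5.58 on day 7, with the groups overlapping on both days. The log2 fold change was 0.03 ± 0.20 on each day (adjusted p = 0.945 and 0.906). The Fgf7 to Fgf2 ratio in FPKM was 2.23 to 3.27 on day 3. The day 7 ratios were 0.846 (PCL-O), 4.93 (PCL-E), 18.4 (PCL-S) and 14.7 (PCL-SE).

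Fgfr1, the FGF receptor of mesenchyme, fell with S7 on both days. It was at 65.2 (PCL-O), 49.1 (PCL-E), 22.2 (PCL-S) and 21.9 (PCL-SE) CPM on day 3, and at 82.8, 53.6, 41.1 and 42.7 on day 7. The S7 libraries were nearly equal within each day and below both others. The log2 fold change was -1.36 ± 0.17 (adjusted p = 0.00483) on day 3 and -0.67 ± 0.17 (adjusted p = 0.0151) on day 7. The difference between the days, 0.69 ± 0.24, did not pass (adjusted p = 0.0711), although it did with DESeq2 (0.0425), with total-count scaling (0.93, 0.0165) and with the arm as a block (0.0155). Single libraries decided several calls. Day 3 was lost without PCL-O day 3 (adjusted p = 0.0615) or PCL-S day 3 (0.074), and day 7 without PCL-O day 7 (-0.41, 0.0585) or PCL-S day 7 (-0.46, 0.131). Without PCL-O day 7 the change between days was called (0.96, adjusted p = 0.012).

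Hgf and Angpt1 are ligands of other receptors, MET and TEK. Hgf was low, with 15 to 66 counts per library. Its levels were 0.465 (PCL-O), 0.848 (PCL-E), 1.73 (PCL-S) and 1.54 (PCL-SE) CPM on day 3 and 0.731, 1.39, 0.924 and 0.507 on day 7. Relative to PCL-O on day 3, PCL-S was 3.73-fold higher (95% counting interval 2.11 to 7.04) and PCL-SE 3.30-fold (1.82 to 6.35). The day 7 ratios were 1.26 (0.726 to 2.24) and 0.694 (0.369 to 1.30). These intervals cover counting error only. The S7 libraries were higher on day 3 and overlapped the others on day 7. The log2 fold changes were 1.33 ± 0.51 (adjusted p = 0.138) and -0.55 ± 0.51 (adjusted p = 0.403). The change between days, -1.88 ± 0.72, did not pass (adjusted p = 0.0926), but did with the arm as a block (-1.91, adjusted p = 0.0487).

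Angpt1 was at 9.73 (PCL-O), 8.24 (PCL-E), 12.1 (PCL-S) and 12.5 (PCL-SE) CPM on day 3. By day 7 it was at 3.78, 4.98, 1.11 and 1.78. The S7 libraries were the higher pair on day 3 and the lower pair on day 7. The log2 fold change was 0.44 ± 0.22 on day 3 (adjusted p = 0.232) and -1.60 ± 0.25 on day 7 (adjusted p = 0.00215). The S7 effect itself changed by -2.05 ± 0.33 between the days (adjusted p = 0.00675). The call on day 7, the called change and the lack of a call on day 3 were the same in every alternative tried, with each library left out included. In the fit without an arm block Angpt1 was the only gene of the 10 with a called change, and with it 4 were called (Fgf7, Fgfr1, Hgf and Angpt1). Of all genes, the fit without the block called 13.2% with a positive change and 15.5% with a negative one. With total-count scaling that split was 3721 positive and 1749 negative, instead of 2105 and 2473, and the all-gene median moved by 0.24.

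Between the days, without S7, 0 of the 10 genes passed the test. Over all genes 0.671% rose and 0.935% fell. At unadjusted p under 0.05, 2514 genes passed, and DESeq2 called 1 gene of the set, Angpt1 (-1.06, adjusted p = 0.00666; edgeR -1.05 ± 0.23, adjusted p = 0.0849). PCL-O and PCL-E parted for Fgf7. Its change was 0.14 over both arms, -1.33 without PCL-E day 7 (adjusted p = 0.00847) and 0.99 without PCL-O day 7 (adjusted p = 0.00636). Pdgfb, Pdgfrb and Pdgfra were called only when 1 of these libraries was left out. Without PCL-O day 7, Pdgfb changed by -1.39 (adjusted p = 0.0451) and Pdgfrb by -0.52 (adjusted p = 0.0193), and without PCL-E day 7, Pdgfra by 0.68 (adjusted p = 0.0499).

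With S7, 4 genes rose and 2 fell from day 3 to day 7, against 24.4% of all genes higher and 26.4% lower. Fgf7 rose by 2.43 ± 0.52 on the log2 scale (adjusted p = 0.00809), Fgfr1 by 0.93 ± 0.17 (0.00434), Pdgfra by 0.79 ± 0.18 (0.0115) and Pdgfc by 0.28 ± 0.09 (0.0396). Angpt1 changed by -3.10 ± 0.25 (adjusted p = 0.000225), which is 8.54-fold lower, and Pdgfb by -2.34 ± 0.63 (adjusted p = 0.020). With total-count scaling the all-gene split was 6256 higher and 2685 lower, instead of 3889 and 4201, the all-gene median moved by 0.30, and Pdgfa was called too (0.41, adjusted p = 0.00509).

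Of these calls, 4 could be lost with 1 library. Fgf7 was lost without PCL-SE day 3 (2.12, adjusted p = 0.0755) or PCL-S day 7 (2.01, 0.0777). Pdgfb was lost without PCL-SE day 3 (adjusted p = 0.0875), PCL-S day 7 (0.125) or PCL-SE day 7 (0.0801), and without the E7 term (0.055). Pdgfra was lost without PCL-S day 3 (adjusted p = 0.095) or PCL-SE day 7 (0.0966). Pdgfc was lost without any 1 of the libraries with S7 (adjusted p = 0.0752 to 0.217). Pdgfrb, by contrast, was called without PCL-O day 7 (-0.35, adjusted p = 0.00371) or PCL-E day 7 (-0.34, 0.00427). Fgfr1 and Angpt1 were called in each of these fits. With the arm as a block Hgf was called too (-1.23, adjusted p = 0.0376).

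E7 had no called gene in the set or in the table (0% higher and 0% lower). At unadjusted p under 0.05, 589 genes passed, and DESeq2 called 1 gene, outside the set. The largest E7 value in the set was that of Pdgfb, -0.94 ± 0.32 (adjusted p = 0.895), followed by Fgf7 at 0.51 ± 0.38. These values average over both days and both S7 states.

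Single arms were set beside PCL-O of the same day as ratios of CPM with 2 added, without a test. The added 2 CPM draws the ratios of genes at low levels toward no change. With none added, for example, Hgf on day 3 was 3.73-fold (PCL-S) and 3.30-fold (PCL-SE) higher than in PCL-O. Angpt1 on day 7 was 3.41-fold (PCL-S) and 2.13-fold (PCL-SE) lower. Neither gene counts as past 2-fold below. On day 3, Pdgfb and Fgfr1 were past 2-fold lower in both arms with S7, and 0 genes were past 2-fold in PCL-E. Over all genes 4.58% (PCL-S), 4.58% (PCL-SE) and 0.37% (PCL-E) were past 2-fold. On day 7 the same 2 genes, Pdgfb (lower) and Fgf7 (higher), were past 2-fold in each of the 3 arms, against 13.6% (PCL-S), 12.6% (PCL-SE) and 1.59% (PCL-E) of all genes. The log2 ratio of Fgf7 was 3.41 (PCL-S), 3.39 (PCL-SE) and 1.70 (PCL-E), and that of Pdgfb was -2.01, -2.05 and -1.17 in this order. Pdgfrb came next in PCL-E on day 7, with log2 ratios of -0.84 there, -0.99 in PCL-S and -0.81 in PCL-SE. Pdgfra moved apart, at -0.68 in PCL-E against 0.31 and 0.39 in PCL-S and PCL-SE. Between PCL-SE and PCL-S, 0 genes of the set differed past 2-fold on either day. The share of all genes past 2-fold for this pair was not computed, so that count cannot be set beside it. The ratios of a day share the PCL-O library.

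**Figure D4:**
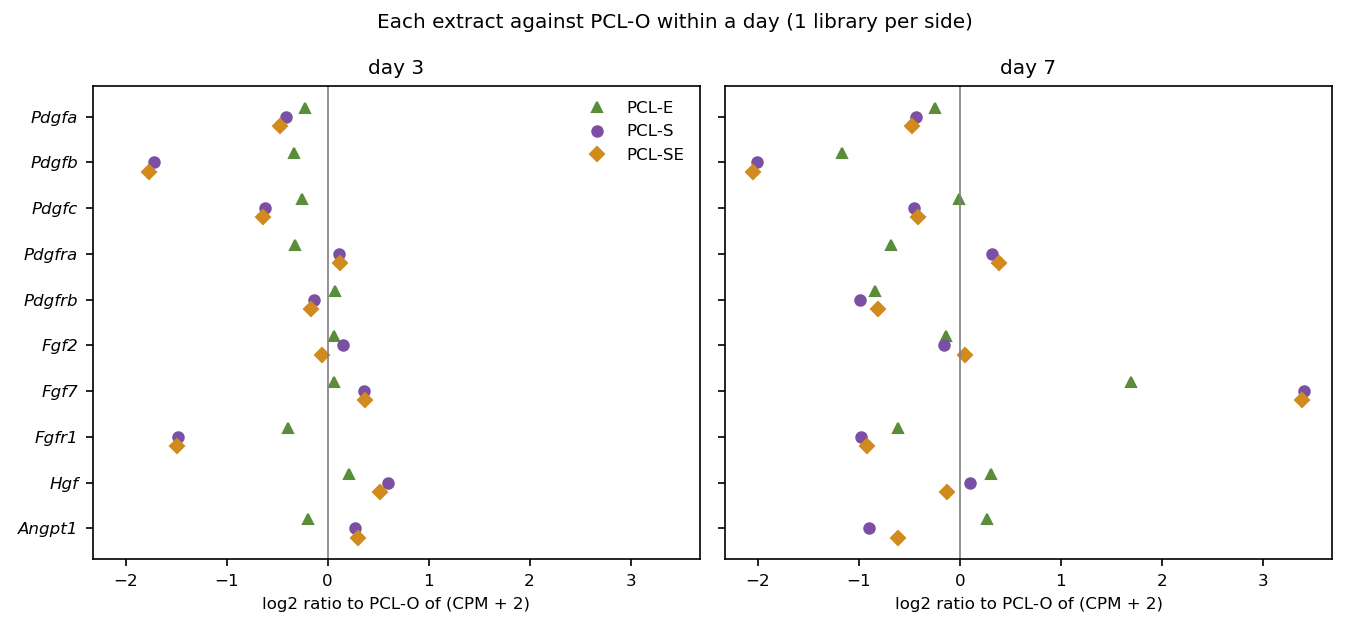
Log2 ratio of each arm to PCL-O of the same day for the 10 genes, from CPM with 2 added, 1 library per side, with a grey line at no change. PCL-S and PCL-SE nearly coincide on both days, while PCL-E is past 2-fold only on day 7, for Fgf7 (1.70) and Pdgfb (-1.17).

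Other genes of these pathways were taken from 7 lists of 91 genes, of which 90 were in the table and 74 were tested. With S7, 8 rose (10.8%) and 16 fell (21.6%) on day 3, against 7.1% and 6.87% of all genes. On day 7, 14 rose (18.9%) and 27 fell (36.5%), against 24.9% and 26.2%. Among the 9 tested other FGF ligands, 3 fell and 0 rose on day 3 (median -2.15, against 0.003 over all genes), and 6 fell and 0 rose on day 7 (median -1.87, against -0.03). Fgf9 (at most 1.53 CPM), Fgf12 (1.27) and Fgf16 (0.727) were low and highest without S7, where the low-count filter could pass them. Falls of such genes are partly set by that filter. Fgf9 and Fgf12 are among the day 7 falls, and the day 3 median is the Fgf16 value (adjusted p = 0.301). Fgf18, an FGF of skeletal tissue, was at 6.66 (PCL-O), 4.24 (PCL-E), 0.578 (PCL-S) and 0.565 (PCL-SE) CPM on day 3 and fell by 3.23 ± 0.31 on the log2 scale (adjusted p = 0.00206). It fell by 3.58 ± 0.32 on day 7 (adjusted p = 0.000328). Fgf9, Fgf12 and Fgf16, and the genes from Fgf10 on in this paragraph, were named after their values were seen. Fgf10, the mesenchymal relative of Fgf7, was at 143 and 125 CPM without S7 (PCL-O, PCL-E) and 47.9 and 52.3 with it on day 3, and at 111 and 115 against 52.5 and 41.5 on day 7. It fell by 1.41 ± 0.13 (adjusted p = 0.00163) and 1.27 ± 0.12 (adjusted p = 0.00044), while Fgf7 was not called or rose. Fgf13, an intracellular FGF homologue, fell by 2.26 and 1.87 on the 2 days, and Fgf1 by 1.67 ± 0.24 on day 7 (adjusted p = 0.00179).

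The PDGF and VEGF family partners (14 tested) had 3 risen and 3 fallen on day 3, and 5 risen and 6 fallen on day 7, beside 7.1% and 6.87% of all genes on day 3 and 24.9% and 26.2% on day 7. Kit, the stem cell factor receptor, was at 9.49 (PCL-O), 4.42 (PCL-E), 0.473 (PCL-S) and 0.815 (PCL-SE) CPM on day 3 (-3.33 ± 0.46, adjusted p = 0.00617), and fell on day 7 as well (-4.08 ± 0.59, adjusted p = 0.00172). Flt1, a VEGF receptor, was not called on day 3 (0.34, adjusted p = 0.628) and fell on day 7 (-4.35 ± 0.52, adjusted p = 0.000864). Its day 7 levels were 30.2 (PCL-O), 9.63 (PCL-E), 1.03 (PCL-S) and 0.807 (PCL-SE) CPM. The change between days was -4.69 ± 0.66 (adjusted p = 0.00446), and in libraries with S7 Flt1 changed by -5.00 ± 0.52 from day 3 to day 7 (adjusted p = 0.000507). Without S7, the lymphatic VEGF receptor Flt4 rose between the days (1.10 ± 0.16, adjusted p = 0.0319), as did the coreceptor Nrp2 (0.81 ± 0.11, adjusted p = 0.0244). Pdgfd, the remaining PDGF ligand, and Pdgfrl, a receptor-like gene, were named after their values were seen. Pdgfd fell on day 7 by 0.99 ± 0.18 (adjusted p = 0.00444; 43.3 and 31.4 CPM without S7, 16.0 and 21.0 with it), and Pdgfrl fell by 1.92 ± 0.11 (adjusted p = 0.000128).

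The feedback regulators and ERK targets (14 tested) had 0 risen and 1 fallen on day 3, and 4 risen and 4 fallen on day 7. Of all genes, 7.1% rose and 6.87% fell with S7 on day 3, and 24.9% rose and 26.2% fell on day 7. From day 3 to day 7 with S7, 7 rose and 1 fell, beside 24.4% and 26.4% of all genes. Dusp5, an ERK phosphatase, had a change of S7 effect of 2.07 ± 0.22 (adjusted p = 0.00224). It was at 5.30 to 6.12 CPM in the 4 day 3 libraries, and on day 7 at 4.77 (PCL-O), 4.96 (PCL-E), 23.5 (PCL-S) and 19.4 (PCL-SE). Dusp6, Spry2 and Spry1 were named after their values were seen. Dusp6 and Spry2 rose on day 7 (0.70 ± 0.18, adjusted p = 0.0157, and 0.62 ± 0.15, adjusted p = 0.0135), and Spry1 fell (-1.85 ± 0.16, adjusted p = 0.000287). Of the 9 receptor adapters, 1 rose and 0 fell with S7 on day 3, and 2 rose and 1 fell on day 7, beside the same shares of all genes on these days.

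Of the other FGF receptors and cofactors (6 tested), 1 rose and 1 fell on day 3, and 0 rose and 2 fell on day 7. The day 3 rise was that of Kl, which was highest with S7 on that day, where the low-count filter could pass it. Calls for Kl are therefore partly set by that filter. Fgfr4, among the day 7 falls and named after its values were seen, was low, at most 0.517 CPM in any library. The shares of all genes were 7.1% risen and 6.87% fallen on day 3, and 24.9% and 26.2% on day 7. Kl, which encodes the FGF cofactor Klotho, was at 3.21 (PCL-S) and 3.95 (PCL-SE) CPM on day 3, with 0 (PCL-O) and 0.212 (PCL-E) without S7 (adjusted p = 0.041). On day 7 Kl had 0 counts in PCL-S and PCL-SE, which makes it at least 48.2-fold lower than on day 3 with S7, against a floor of 3 counts per library. Of the HGF and angiopoietin partners (8 tested), 1 rose and 2 fell with S7 on each day, beside the same shares of all genes. Angpt2, an antagonist of angiopoietin 1 in many settings, rose on day 7 (2.37 ± 0.401 against 0.488 ± 0.240 CPM, SD, n = 2; 2.25 ± 0.44, adjusted p = 0.00558). Met, the HGF receptor, fell between the days without S7 (-0.50 ± 0.08, adjusted p = 0.0364). Tek, the receptor of angiopoietin 1, was named after its values were seen. It rose with S7 on day 3 (13.6 and 15.1 CPM, against 5.80 and 6.70 without it; 1.20 ± 0.15, adjusted p = 0.00431) and stood at 3.40 to 4.23 CPM in all 4 libraries on day 7.

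Of the EGF family and other growth factors (14 tested), 2 rose and 6 fell on each day, beside 7.1% and 6.87% of all genes on day 3 and 24.9% and 26.2% on day 7. Ptn, the heparin-binding factor pleiotrophin, rose on day 3 (2.09 ± 0.48, adjusted p = 0.0331), and its S7 effect changed by -3.33 ± 0.71 between the days (adjusted p = 0.0159). Ereg, an EGF receptor ligand, rose on day 7 to 25.9 ± 1.63 from 5.59 ± 5.98 CPM (SD, n = 2; adjusted p = 0.0146). Nrg1, a ligand of ERBB receptors, rose from 22.4 ± 0.723 on day 3 to 112.9 ± 8.12 CPM on day 7 with S7 (2.34 ± 0.14, adjusted p = 0.000113). Areg, another EGF receptor ligand, rose between the same days (2.33 ± 0.52, adjusted p = 0.00955). The change of the S7 effect was 1.97 ± 0.18 for Nrg1 (adjusted p = 0.00184). Over the 7 lists, 7 genes (9.46%) had a positive and 14 (18.9%) a negative change of S7 effect, beside 13.2% and 15.5% of all genes. Between days without S7, 2 rose (2.70%) and 1 fell (1.35%), beside 0.671% and 0.935%. With S7, 17 rose (23.0%) and 19 fell (25.7%), close to the 24.4% and 26.4% of all genes. E7 gave 0 calls in the lists.

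Genes with patterns most like those of Pdgfb, Fgf7 and Angpt1, the 3 genes of the set that ranged over at least 2 log2 units with 2 CPM added, were found by the smallest root-mean-square difference of centred log2 levels, also with 2 CPM added, over the 8 libraries, among 9897 genes with a mean of at least 5 CPM. Nearest to Pdgfb were Mgll (0.190 log2 units), Nhsl1 (0.204) and Egflam (0.213). That likeness depends on the added constant, which flattens low levels. With 0.5 CPM added the differences were 0.240, 0.737 and 0.550, and Pdgfb ranged 95.1-fold over the libraries, against 19.1-fold for Mgll, 3.62-fold for Nhsl1 and 5.83-fold for Egflam. Mgll, which encodes monoacylglycerol lipase, ran from 16.3 CPM in PCL-O day 7 down to 0.853 in PCL-SE day 7. Nearest to Fgf7 were Best1 (0.227), Fth1 (0.244) and Hspb8 (0.251). Best1 and Fth1 lie 61 bases apart in the mouse annotation, so reads of these genes may be hard to tell apart and their values are uncertain. Nearest to Angpt1 were Dtna (0.152), Tspan18 (0.156) and Smoc1 (0.192). With 0.5 CPM added, the differences were 0.263 to 0.318 for the Fgf7 neighbours and 0.219 to 0.291 for those of Angpt1.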

How the data were processed

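Bulk mRNA was profiled in 8 libraries, 1 per arm and day, with a SMARTER mRNA kit, per the labels' protocols. The authors deposited 1 table of counts and FPKM per gene, per the file headers; its build is mm10 per the submitters' processing notes; no source used here names the aligner or counter. Of its lines, 10 that were fragments of annotation were left out, leaving 26873 genes. The authors' own comparisons were not used.

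Counts were analysed as deposited with edgeR 4.0.16 (R 4.3.3): filterByExpr over S7-by-day groups (15942 genes), TMM, and a quasi-likelihood fit of S7, day, S7 by day and E7 to all 8 libraries (residual degrees of freedom 3, BCV 0.137). Benjamini-Hochberg adjustment used a threshold of 0.05. DESeq2 1.42.0 was an alternative, with other scalings, no filter, other terms, each library left out and, added after seeing the data, an arm block for the days (S7 by E7 term). Standard errors are the fold change over the root of F. The fit was tested on simulated data. Single pairs have 2 CPM added and no test. With 3 counts as the floor, each library resolves 0.0719 to 0.0910 CPM; count ratios have 95% exact intervals. PCL-O is the blank by elimination.

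The members and lists were chosen with earlier results of these data known. All members are named; of the lists, the 2 called genes with the largest change in each direction per comparison (at least 1 CPM in the higher group), and others where said.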

Additional observations from a re-analysis of the deposited data

Results flagged for a closer look

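Angpt1, the angiopoietin 1 ligand of TEK, was the 1 gene of the set whose S7 effect differed between the days by a test of the difference itself, with a change of -2.05 on the log2 scale (adjusted p = 0.00675, edgeR's quasi-likelihood test without an arm block; with an arm block it passed as well, and so did Fgf7, Fgfr1 and Hgf). The effect was 0.44 ± 0.22 on day 3 and -1.60 ± 0.25 on day 7. In the libraries, both S7 arms were above both other arms on day 3 (12.1 and 12.5 against 9.73 and 8.24 CPM) and below them on day 7 (1.11 and 1.78 against 3.78 and 4.98 CPM). Of all genes, 13.2% were called with a positive and 15.5% with a negative change of the S7 effect. Other settings with all libraries called further genes of the set. These were Fgf7 and Fgfr1 with total-count scaling, Fgfr1 with DESeq2, Fgf7 with no low-count filter, and Pdgfb with the E7 by day term.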

How the results depend on the processing

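The groups join different arms, no arm is replicated, and counts moved when 1 of the 8 libraries was left out. All genes called then ran from 257 to 3847 for S7 on day 3 (2227 with all libraries) and from 5003 to 8327 on day 7 (8137). They ran from 1538 to 6219 for the change between days (4578), from 0 to 1347 between days without S7 (256), from 4479 to 9206 with S7 (8090), and stayed at 0 for E7. Genes of the set called ran from 0 to 5 for S7 on day 3 (4), 4 to 8 on day 7 (7), 1 to 4 for the change (1), 0 to 3 between days without S7 (0) and 3 to 7 with S7 (6). Of other alternatives, DESeq2 called 827 genes between days without S7, 1 of them in the set (Angpt1), 1 gene for E7, and 2 of the set for the change between days. That last count was 3 with total-count scaling, 2 with no low-count filter and 2 with the E7 by day term added, which also gave 143 genes between days without S7. Of all genes, the change between days was called for 4781 with DESeq2 and 5470 with total-count scaling. It was called for 4356 with no low-count filter and 3811 with the E7 by day term. With 0.5 instead of 2 added, 4 genes of the set were past 2-fold in PCL-S on day 7, and 3 in each of PCL-S and PCL-SE on day 3. The share of all genes past 2-fold with 0.5 added was not computed, so these counts cannot be set beside it. Fgf7 between days without S7 reversed to -1.33 without PCL-E day 7 (leave-one-out range -1.33 to 0.99). For single genes of the set, 6 calls were lost and 109 kept over the alternatives that use all libraries, and 12 uncalled results became called. With 1 library left out, 29 calls were lost and 115 kept, and 15 uncalled results became called. The cause of these changes was not tested. Counts were low for Hgf and, with S7 on day 7, for Pdgfb, so counting error is large there. Replicate numbers pair nothing here, since each arm and day has 1 library. Days can be paired within arms, and with that arm block, added after seeing the data, 4 genes of the set were called for the change between days, 0 between days without S7 and 7 with S7 (4232, 206 and 7866 genes in all).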
